A study of Mus musculus with 51 samples.

Results

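The fibroblast growth factors (FGFs), platelet-derived growth factors (PDGFs), vascular endothelial growth factors (VEGFs), hepatocyte growth factor (HGF) and 2 ligands of the epidermal growth factor receptor were followed with their receptors across clonal mouse stromal lines. Members were taken by gene symbol and were 42 of the 19938 genes with a value. They comprised 22 FGF ligands, the FGF receptors Fgfr1 to Fgfr4 and the kinase-less Fgfrl1, Hgf and its receptor Met, 4 PDGF ligands, the ligands Vegfb, Vegfc and Vegfd, the VEGF receptors Flt1, Kdr and Flt4, the ligands Ereg and Hbegf, and Egfr. Each member had 1 probe set. The symbol Areg had no value, and Figf was listed as Vegfd. Vegfa was not among the symbols taken, so statements on VEGF ligands leave it out.

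The study set stromal clones that support hematopoietic stem and progenitor cells in culture against clones that support them less or not. From the aorta-gonad-mesonephros region (AGM) at embryonic day 11 of (CBAxC57BL/10)F1 embryos came the supportive clones UG26.1B6, AM14-1C4 and AM30-3F4 and the less-supportive clone UG26.3B5. From C57BL/6 fetal liver at embryonic day 14.5 came the supportive clones AFT024 and 2012 and the non-supportive clones BFC012, BFC and AFT011. Adult bone marrow gave the supportive clone BMC9 and the less-supportive clone BMC10, both H2ts6, and the supportive BALB/c clone 14F1-1, while OP9 is a supportive line from (C57BL/6xC3H)F2-op/op fetal calvaria. Each of these 13 lines had 3 arrays from confluent cultures on gelatin, kept at 33 °C except for 14F1-1 and for OP9 arrays 1 and 2, which were kept at 37 °C. AFT024 and BFC012 were also grown for 4 days with or without bone marrow KLS cells (c-Kit+Sca1+Lin- progenitors) and sorted as CD45-negative stroma, giving 4 further groups of 3 arrays. Each clone stands for itself and not for its tissue, and labels do not give the clone number of BFC, which may or may not be BFC012. No label states that the 3 arrays of a line come from different cultures, and p-values here therefore reflect spread among arrays, which may be technical.

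Receptor tyrosine kinases of these families are activated when a secreted ligand brings receptor chains together. Paracrine FGFs bind their receptors with heparan sulfate as co-factor, the endocrine FGFs use Klotho proteins in its place, and the intracellular FGF homologous factors Fgf11 to Fgf14 are not secreted in the usual way. In connective tissue, Fgf7, Fgf10 and Hgf are typical products of mesenchymal cells that act on neighbouring epithelium, PDGFs act on mesenchymal cells through Pdgfra and Pdgfrb, and VEGF receptors are best known from blood and lymphatic endothelium.

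Values are log2 signals, on which a difference of 1 is a 2-fold change. By the distribution of their values the confluent arrays fell into 3 sets of 18, 6 and 15 arrays and the sorted arrays into another of 12, taken as separately normalized, so levels are compared within a set only, and never between genes. Arrays of a group correlated at 0.991 to 0.998, 0.994 to 0.996 and 0.994 to 0.999 in the confluent sets and at 0.972 to 0.996 among sorted arrays. Array 1 stood apart in 3 of the sorted groups, where its mean correlation with the other arrays of its group was 0.972 to 0.977. Of the 7 stromal markers, Vim was between 13.41 and 13.82 and Sparc between 12.41 and 13.22 in the lines of the first confluent set and the third, Vim at 11.64 in OP9 and 10.72 in BFC. Others were not high in every line, as Thy1 was at 6.15 to 6.33 in the first set, whose median over genes was 7.27, and Col1a2 was at 9.98 in AFT024 and 7.07 in BFC012, at 8.8 in OP9 and 5.54 in BFC, and at 11.78 in 2012 and 7.37 in AFT011. The summed endothelial markers (log2 of the sum of their unlogged signals, as for every summed list) lay between 9.45 and 9.8 in the first set and between 9.5 and 9.9 in the third.

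Promoters are shown for 4 ligands with wide differences between lines, described below, and for 2 VEGF receptors that were high in the same fetal liver clones as Fgf18. They are the 250 bases before the annotated start, 5′ to 3′ on the gene's strand, from RefSeq for build GRCm38.p6, and a promoter was found for 32 of the 42 members. Capitals mark matches on either strand to a TATA box (TATAAA), a GC box (GGGCGG), a TEAD motif (GGAATG), an AP-1 motif (TGANTCA), a CRE (TGACGTCA) and an E-box (CACGTG), which do not overlap one another in these windows.
Fgf7, chr2:126034408-126034657, plus strand: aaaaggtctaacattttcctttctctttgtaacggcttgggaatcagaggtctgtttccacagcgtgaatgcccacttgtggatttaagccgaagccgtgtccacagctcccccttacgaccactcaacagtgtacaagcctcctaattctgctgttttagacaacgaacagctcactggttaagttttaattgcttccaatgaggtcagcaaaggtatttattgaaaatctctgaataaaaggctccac
Fgf10, chr13:118714449-118714698, plus strand: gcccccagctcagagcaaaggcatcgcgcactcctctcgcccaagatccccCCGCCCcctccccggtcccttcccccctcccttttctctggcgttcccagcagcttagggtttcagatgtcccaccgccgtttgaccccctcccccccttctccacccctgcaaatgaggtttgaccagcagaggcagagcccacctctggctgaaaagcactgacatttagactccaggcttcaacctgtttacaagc
Hgf, chr5:16553245-16553494, plus strand, the first of 2 annotated starts: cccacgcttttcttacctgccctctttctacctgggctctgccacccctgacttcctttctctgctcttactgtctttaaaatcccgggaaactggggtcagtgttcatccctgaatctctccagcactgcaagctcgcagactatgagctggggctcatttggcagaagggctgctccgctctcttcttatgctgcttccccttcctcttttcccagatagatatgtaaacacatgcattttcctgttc
Fgf18, chr11:33147401-33147650, minus strand: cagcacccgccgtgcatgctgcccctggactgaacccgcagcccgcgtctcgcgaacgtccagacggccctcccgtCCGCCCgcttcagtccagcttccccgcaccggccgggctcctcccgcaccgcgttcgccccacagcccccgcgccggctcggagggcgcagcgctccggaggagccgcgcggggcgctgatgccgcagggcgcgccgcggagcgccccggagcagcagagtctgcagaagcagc
Flt1, chr5:147726012-147726261, minus strand: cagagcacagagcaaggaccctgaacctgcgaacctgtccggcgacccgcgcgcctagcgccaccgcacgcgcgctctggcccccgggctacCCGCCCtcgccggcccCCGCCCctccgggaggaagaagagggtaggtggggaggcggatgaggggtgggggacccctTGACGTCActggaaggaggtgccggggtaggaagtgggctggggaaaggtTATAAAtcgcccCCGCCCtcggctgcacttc
Flt4, chr11:49609429-49609678, plus strand: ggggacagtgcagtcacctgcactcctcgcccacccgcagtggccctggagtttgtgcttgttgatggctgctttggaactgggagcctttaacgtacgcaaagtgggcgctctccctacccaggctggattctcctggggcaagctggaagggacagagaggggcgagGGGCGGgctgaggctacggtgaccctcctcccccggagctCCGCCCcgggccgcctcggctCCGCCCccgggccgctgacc
The Fgf7 and Hgf windows held 0 matches to the 6 motifs. Fgf10 and Fgf18 held 1 GC box each. Flt4 held 3 GC boxes, and Flt1 held 3 GC boxes, a CRE and a TATA box that lies 31 to 26 bases before the start. Of all 32851 promoter windows, 32.7% held a GC box, 12.4% the TATA box, 12.6% the TEAD motif, 6.75% the AP-1 motif, 6.02% the E-box and 1.55% the CRE.

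Most FGF ligands gave a nearly level signal across lines, while a handful of ligands and most receptors ranged widely. The means of the lines differed by less than 0.5 in every confluent set for 18 members: 17 of the 22 FGF ligands (Fgf1, Fgf3, Fgf4, Fgf5, Fgf6, Fgf8, Fgf9, Fgf12, Fgf13, Fgf14, Fgf15, Fgf16, Fgf17, Fgf20, Fgf21, Fgf22 and Fgf23) and Fgfr4. The share of all genes under this limit was not computed, and their median range was 0.38, 0.16 and 0.41 in the sets of 18, 6 and 15 arrays. In the set of 18 arrays the lower quartile over genes was 5.72. Line means there were 5.11 to 5.25 for Fgf12 and 5.3 to 5.43 for Fgf14, but 7.62 to 7.78 for Fgf8. Low signals cannot be told from background, so a level signal is not read as steady expression of these 18 members. Outside this group, Fgf11 ranged from 5.76 to 6.3 over the lines of the first set and passed in none of the comparisons of 2 lines or 2 cultures. The remaining ligands Fgf2, Fgf7, Fgf10 and Fgf18 carried nearly all of the family's variation. Over all members, the line means differed by 1 or more for 40.5% in the first set against 14.5% of all genes, for 42.9% against 18.9% in the third set, and for 16.7% against 6.18% in the second. Fgf7 had the widest range of any member in the third set, 6.52 between 14F1-1 and AFT011, and Hgf the widest in the second, 5.69 between OP9 and BFC.

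**Figure D1:**
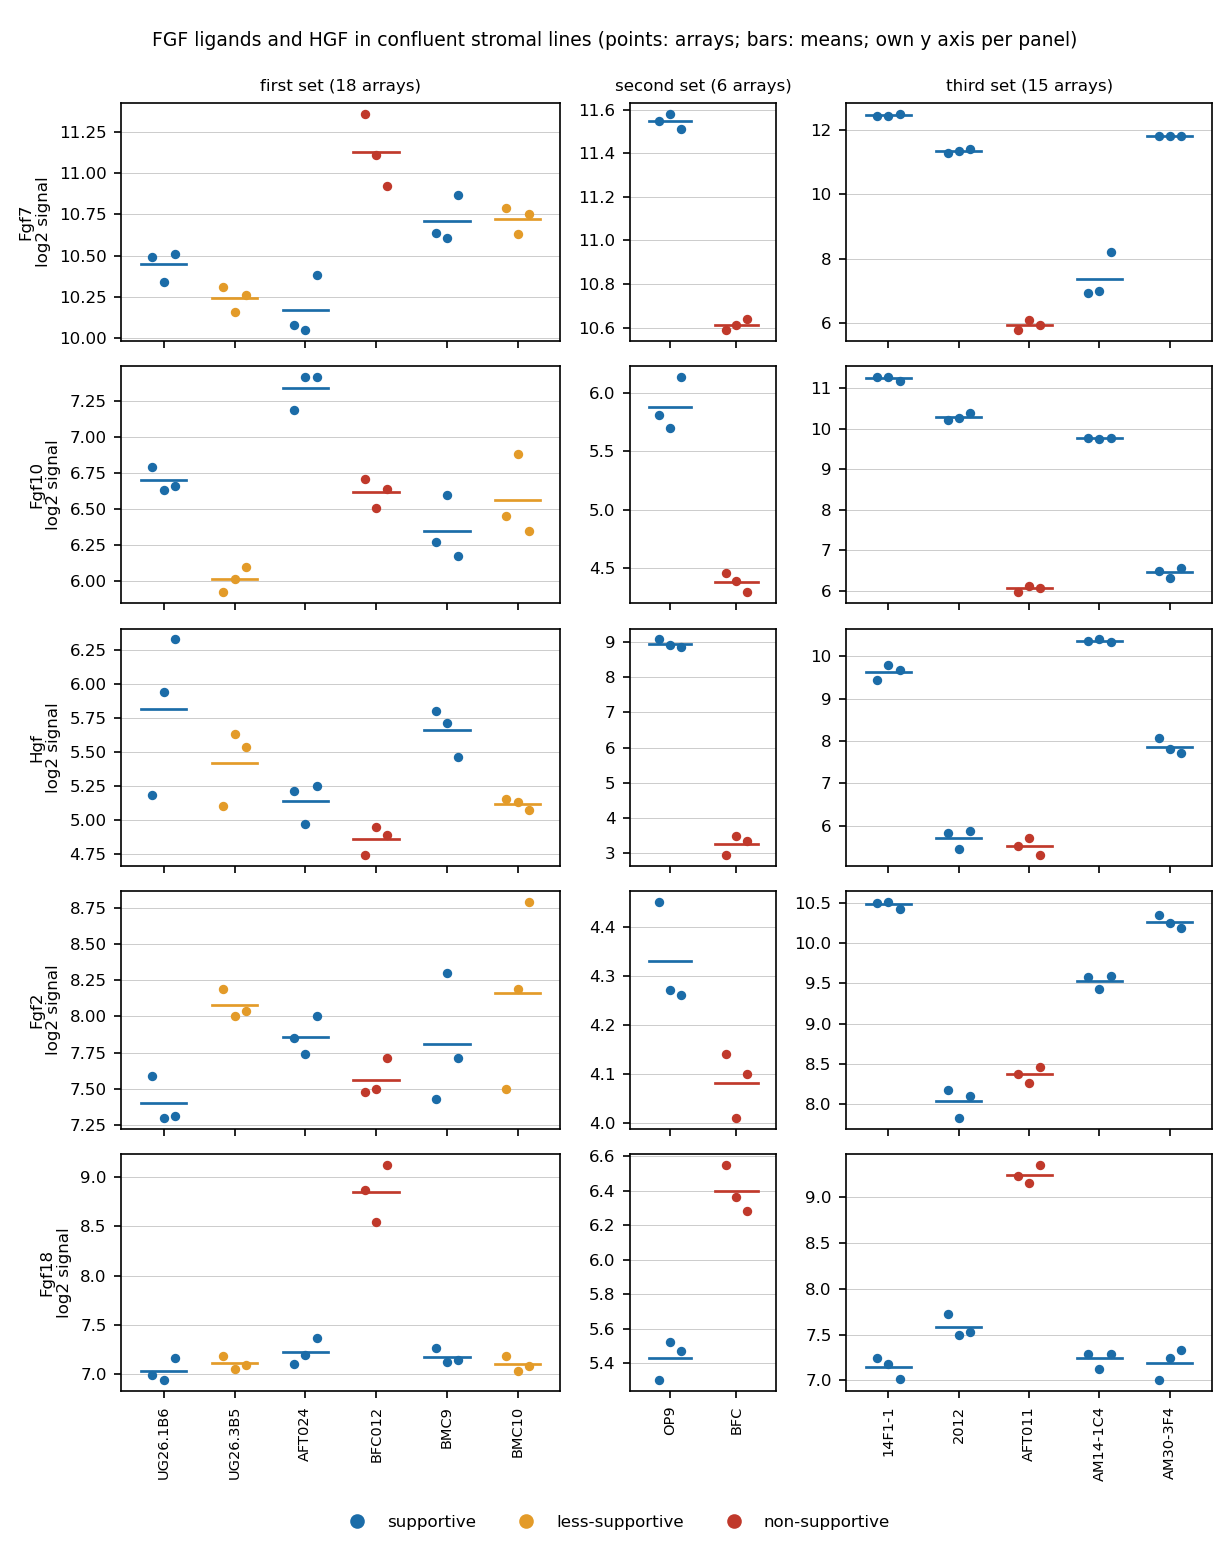
Log2 signal of Fgf7, Fgf10, Hgf, Fgf2 and Fgf18 (y axes, one scale per panel) in each of 3 arrays of the 13 confluent lines (x axis), with bars at the means and colours for the labelled support; columns are the 3 normalization sets. Fgf7 is low in AFT011 and AM14-1C4, Hgf is high in OP9, 14F1-1 and AM14-1C4, and Fgf18 is high in BFC012 and AFT011.

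Pairs of a supportive and a less- or non-supportive line were compared within a set, to ask which members differ with support in one tissue. Counts are of members past an adjusted p of 0.05 (limma, over all genes). In the AGM pair, UG26.1B6 against UG26.3B5, 4 members were higher and 4 lower, where 8.56% of all genes passed. AFT024 against BFC012, the fetal liver pair, had 7 higher and 7 lower beside 28.5% of all genes. BMC9 against BMC10, the bone marrow pair, had 5 higher and 2 lower beside 15.5%. OP9 against BFC had 9 higher and 5 lower beside 34.4%, and the second fetal liver pair, 2012 against AFT011, had 10 higher and 8 lower beside 27.6%. Read against these shares, the members' counts lay above the background in the AGM pair (8 of 42) and the second fetal liver pair (18 of 42). They lay near it in the fetal liver pair (14 of 42), the bone marrow pair (7 of 42) and the OP9 pair (14 of 42). With 1 array left out, the AGM pair had 6 to 9 members and the second fetal liver pair 13 to 22. OP9 and BFC also differ in tissue, strain and, for OP9 arrays 1 and 2, temperature, and these cannot be told apart. Of the 42 members, 26 passed in at least 1 of these 5 pairs, 19 in 2 or more, and 9 passed in both directions in different pairs. The 16 that passed in none included 14 FGF ligands. The matching shares over all genes were not computed, so these counts are not read as particular to the members.

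Supportive lines were also set against each other in the third set. AM14-1C4 against AM30-3F4, both from the AGM, had 7 members higher and 6 lower, beside 31.6% of all genes. The bone marrow clone 14F1-1 against the fetal liver clone 2012 had 8 higher and 12 lower, beside 36.6%. These 2 clones also differ in strain, age and culture temperature, and these cannot be told apart. In AM14-1C4 the hematopoietic marker sum was 10.48 to 10.64, against 9.61 to 9.68 in AM30-3F4, with the macrophage gene Lyz2 at 9.36 in AM14-1C4 and 5.37 in AM30-3F4. Of the 11 hematopoietic markers 2 were higher in AM14-1C4 and 0 lower, while Ptprc (CD45) was at 5.51 and 5.58, and the part of this signal in the results on AM14-1C4 was not tested.

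**Figure D2:**
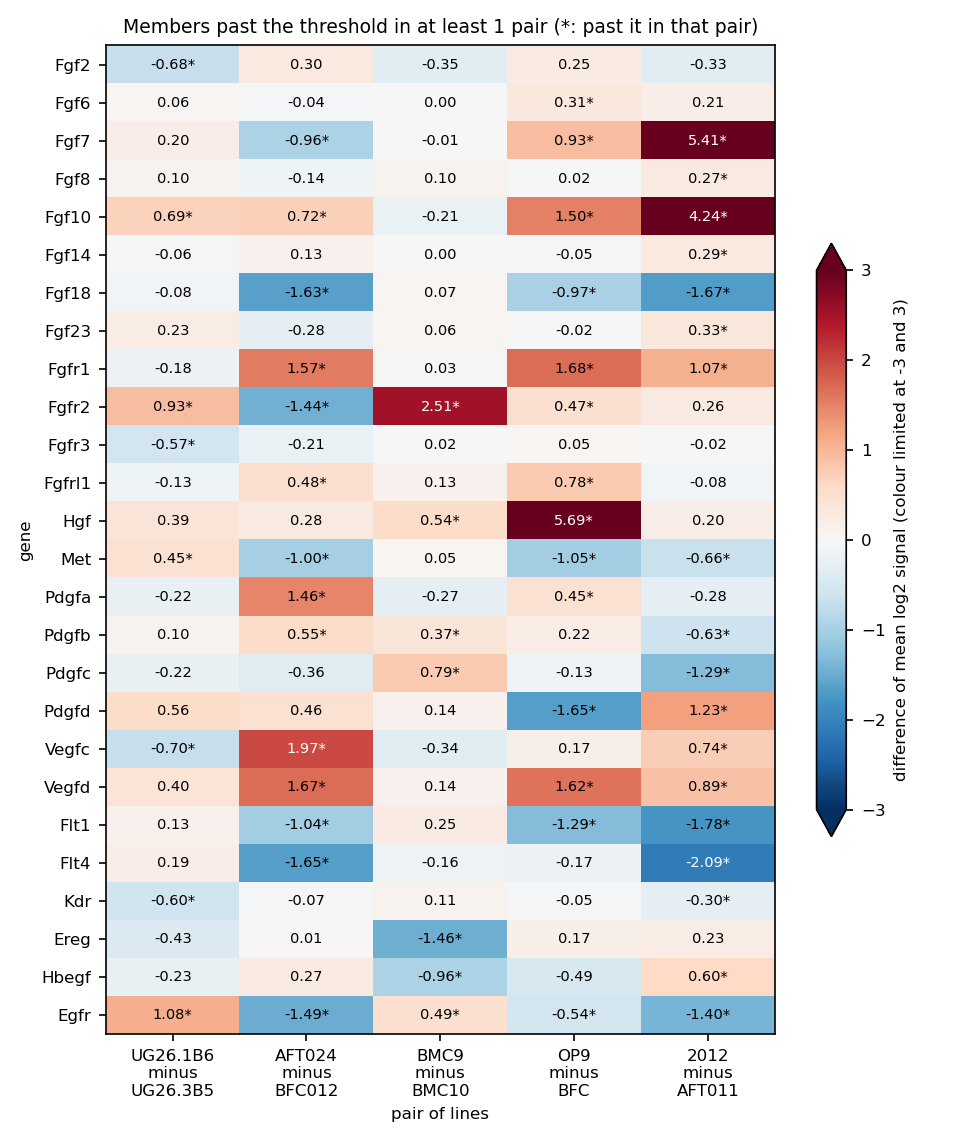
Difference of mean log2 signal (colour and printed value, supportive minus less- or non-supportive line) for the 26 members (rows) past the threshold in at least 1 of 5 pairs (columns); an asterisk marks an adjusted p under 0.05. Fgf10 is higher in 4 pairs and Vegfd in 3, whereas Egfr, Fgfr2, Fgf7, Met and Vegfc carry asterisks in both directions.

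Fgf7, the keratinocyte growth factor, had the widest range of the ligands in the third set. It was at 11.28, 11.34 and 11.41 in 2012, against 5.79, 6.1 and 5.93 in AFT011. The arrays of these clones lay far apart, and the difference was 5.41 ± 0.17 (SE), a 42.4-fold higher signal in 2012 (adjusted p = 9.12e-23). The AFT011 mean of 5.94 lay just below the first quartile over genes of the set (5.98), where a low signal cannot be told from background. In the AGM lines of the same set Fgf7 was at 6.92, 7.01 and 8.22 in AM14-1C4, against 11.82, 11.83 and 11.81 in AM30-3F4. Both lines are supportive, yet Fgf7 was 21.6-fold lower in AM14-1C4 (log2 difference -4.43, adjusted p = 2.87e-20), and array 3 lay above the other 2. The clone 14F1-1 had the highest level of the set, at 12.44, 12.44 and 12.5, against 11.28 to 11.41 in 2012 (difference 1.12, adjusted p = 2.19e-06). In the first set the direction turned: Fgf7 was lower in AFT024 than in BFC012 (difference -0.96, adjusted p = 4.01e-05), at means of 10.17 and 11.13. In OP9 it was 1.91-fold higher than in BFC.

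Fgf10, which binds the same epithelial isoform of Fgfr2 as Fgf7, was higher in the supportive line of 4 of the 5 pairs. It was at 10.22, 10.28 and 10.38 in 2012, against 5.96, 6.13 and 6.07 in AFT011. The groups lay 4.24 ± 0.11 (SE) apart, 18.9-fold (adjusted p = 4.08e-25). OP9 arrays had 5.81, 5.7 and 6.14, against 4.46, 4.39 and 4.29 in BFC, a 2.83-fold higher signal with no overlap. Smaller differences were seen in UG26.1B6 over UG26.3B5 (0.69, adjusted p = 5.28e-05) and in AFT024 over BFC012 (0.72, adjusted p = 3.82e-06). BMC9 and BMC10 overlapped, at means of 6.35 and 6.56. Between supportive AGM clones Fgf10 was at 9.78, 9.76 and 9.77 in AM14-1C4, against 6.5, 6.32 and 6.56 in AM30-3F4. The AM14-1C4 signal was 9.9-fold higher, so in this pair Fgf10 and Fgf7 differed in opposite directions. 14F1-1 again had the highest level of its set, 11.29, 11.28 and 11.19, and stood 0.96 above 2012 (adjusted p = 1.14e-08).

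Fgf18, a paracrine factor known from cartilage and bone, was high in the non-supportive fetal liver clones. It was at 7.1, 7.19 and 7.36 in AFT024, against 8.87, 8.55 and 9.13 in BFC012. The other 4 lines of the set had means between 7.03 and 7.17, so BFC012 was the line apart, and AFT024 was 3.1-fold lower than it (adjusted p = 2.22e-14). In the second fetal liver pair Fgf18 was at 7.72, 7.49 and 7.53 in 2012, against 9.23, 9.15 and 9.35 in AFT011. The 2012 signal was 3.17-fold lower (adjusted p = 2.28e-14), and OP9 was 1.96-fold lower than BFC. The AGM and bone marrow pairs differed by -0.08 and 0.07 and did not pass.

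Fgf2, basic FGF, varied mostly among supportive lines of the third set. It was at 10.5, 10.51 and 10.42 in 14F1-1, against 8.17, 7.83 and 8.1 in 2012. The difference of 2.44 ± 0.18 (SE) made 14F1-1 5.43-fold higher (adjusted p = 3.54e-13). AM14-1C4 and AM30-3F4 were also high, with means of 9.53 and 10.26. In the AGM pair Fgf2 was 1.6-fold lower in UG26.1B6 than in UG26.3B5 (adjusted p = 0.014). Among the level ligands, 4 passed the threshold by small amounts: Fgf6 was 0.31 higher in OP9 than in BFC, and Fgf8, Fgf14 and Fgf23 were 0.27, 0.29 and 0.33 higher in 2012 than in AFT011. Fgf14 and Fgf23 differed by -0.27 and -0.29 between 14F1-1 and 2012.

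Among the FGF receptors, Fgfr1, the receptor typical of mesenchyme, was higher in the supportive line of the 3 pairs with a non-supportive fetal liver clone. It was at 11.08, 10.6 and 10.57 in AFT024, against 9.08, 9.13 and 9.35 in BFC012. AFT024 stood 2.96-fold higher (difference 1.57, adjusted p = 1.15e-15). OP9 arrays had 7.35, 7.35 and 7.34, against 5.67, 5.68 and 5.64 in BFC. This was a 3.21-fold higher signal with arrays of each line almost coinciding. In 2012 the arrays had 11.17, 11.08 and 11.1, against 10.03, 10.05 and 10.04 in AFT011, 2.1-fold higher (adjusted p = 2.96e-11). The AGM and bone marrow pairs differed by -0.18 and 0.03 and did not pass the threshold. BFC may be BFC012, so the 3 pairs need not hold 3 different non-supportive clones.

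Fgfr2, whose epithelial isoform is the receptor of Fgf7 and Fgf10, moved in opposite directions in different pairs. It was at 10.2, 9.58 and 9.55 in BMC9, against 7.62, 7.45 and 6.73 in BMC10. That was the largest difference of any member in the bone marrow pair, 2.51 ± 0.16 (SE) or 5.69-fold (adjusted p = 2e-14). AFT024 had 7.83, 8 and 8.05, against 9.74, 9.28 and 9.19 in BFC012. Here the supportive line was 2.72-fold lower, with no overlap. UG26.1B6 was higher than UG26.3B5 by 0.93 and OP9 higher than BFC by 0.47, while 2012 and AFT011 differed by 0.26 and did not pass. Among supportive lines Fgfr2 was at 7.98, 8.06 and 8.36 in AM14-1C4, against 9.47, 9.47 and 9.45 in AM30-3F4. It was at 8, 8.01 and 8.13 in 14F1-1, against 9.91, 10.07 and 9.93 in 2012. The first of each of these pairs was lower, by 2.51-fold and 3.8-fold. The probe set does not distinguish the receptor's isoforms.

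The other FGF receptors differed less. Fgfr3 was 1.49-fold lower in UG26.1B6 than in UG26.3B5, and Fgfr4 passed in no pair. Fgfrl1, which lacks the kinase domain, was 1.39-fold higher in AFT024 than in BFC012, 1.71-fold higher in OP9 than in BFC and 1.51-fold higher in 14F1-1 than in 2012.

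Hgf, the scatter factor made by mesenchymal cells, stood highest in supportive lines: OP9 in its set, and AM14-1C4 and 14F1-1 in theirs, with AM30-3F4 between these and the fetal liver clones. In OP9 it was at 9.07, 8.91 and 8.86, against 2.95, 3.49 and 3.35 in BFC. This was the largest difference of any member in any pair, 5.69 ± 0.18 (SE) or 51.5-fold (adjusted p = 3.95e-23), and the OP9 array grown at 33 °C, array 3, lay close to the other 2. The BFC mean of 3.26 lay below the first quartile over genes of this set (4.07). The fold therefore rests on a signal that cannot be told from background. AM14-1C4 arrays had 10.36, 10.4 and 10.34, against 8.08, 7.81 and 7.73 in AM30-3F4. AM14-1C4 was 5.64-fold higher (adjusted p = 2.09e-13). 14F1-1 arrays had 9.45, 9.79 and 9.67, against 5.82, 5.45 and 5.87 in 2012. The supportive clone 2012 overlapped AFT011 (means of 5.72 and 5.52, adjusted p = 0.422), while 14F1-1 was 15.2-fold higher than 2012. The 2012 and AFT011 means lay below the first quartile over genes of the third set (5.98). Within the first set line means ran only from 4.86 in BFC012 to 5.82 in UG26.1B6. Among them BMC9 was 1.45-fold higher than BMC10 (adjusted p = 0.0358), at means of 5.66 and 5.12. Both means lay below the lower quartile over genes of the set (5.72), where a low signal cannot be told from background. The call was lost in the fit of the first set alone (adjusted p = 0.128). It was also lost when any array of either line except array 3 of BMC9 was left out (adjusted p from 0.0633 to 0.138).

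Met, the HGF receptor, was lower in the supportive line of the 3 pairs with a non-supportive fetal liver clone, where BFC may be BFC012. It was at 6.87, 7.09 and 7.04 in OP9, against 7.98, 8.13 and 8.03 in BFC. OP9 was 2.07-fold lower (adjusted p = 2.02e-07), so in this pair ligand and receptor differed in opposite directions. AFT024 was lower than BFC012 by a 2-fold change (adjusted p = 6.99e-07) and 2012 was 1.58-fold lower than AFT011. UG26.1B6 was 1.36-fold higher than UG26.3B5 although arrays overlapped, and AM14-1C4 was 1.93-fold higher than AM30-3F4. In 14F1-1 Met was 1.48-fold lower than in 2012. Of 10 measured genes of HGF activation and its inhibition, 1 was higher and 2 were lower in AFT024 than in BFC012, beside 28.5% of all genes. In 2012 against AFT011 1 was higher and 3 were lower, beside 27.6%. Spint1, an inhibitor of the HGF activator, was among those lower in both pairs (-1.31 and -1.65). The urokinase gene Plau differed by 2.42 in AFT024 against BFC012 and by -0.78 in 2012 against AFT011.

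The PDGF ligands showed no common direction. Pdgfa, which signals through Pdgfra, was at 10.7, 10.54 and 10.57 in AFT024, against 9.8, 8.77 and 8.85 in BFC012. AFT024 was 2.76-fold higher (adjusted p = 1.71e-09), with array 1 of BFC012 about 1 unit above the other 2. Pdgfa was also at 10.48, 10.35 and 10.35 in 14F1-1, against 9.45, 9.31 and 9.29 in 2012, a 2.05-fold higher signal, and it was 1.37-fold higher in OP9 than in BFC. Pdgfb, which binds both receptor chains, was 0.55 higher in AFT024 than in BFC012, where arrays overlapped and the adjusted p was 0.0701 with only the arrays of the pair, 0.37 higher in BMC9 than in BMC10, and it differed by -0.63 in 2012 against AFT011.

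Pdgfc and Pdgfd are secreted in a latent form that is activated by cleavage. Pdgfc was at 9.07, 9.12 and 9.23 in 2012, against 10.42, 10.37 and 10.51 in AFT011. The 2012 signal was 2.44-fold lower (adjusted p = 1.31e-06). In 14F1-1 Pdgfc was at 10.5, 10.51 and 10.47, 2.55-fold above 2012, and it was also higher in BMC9 than in BMC10 (0.79, adjusted p = 0.0618 in the fit of the first set alone) and in AM14-1C4 than in AM30-3F4 (0.82). Pdgfd was at 8.43, 8.71 and 8.99 in 2012, against 7.48, 7.4 and 7.56 in AFT011. So in 2012 Pdgfd was 2.34-fold higher while Pdgfc was lower. In the AGM pair Pdgfd differed by 0.56 (adjusted p = 0.0578, and 0.00699 when the replicate number entered as a block). OP9 arrays had 3.17, 3.39 and 3.16 for Pdgfd, against 4.85, 4.98 and 4.83 in BFC, 3.13-fold lower in OP9. The OP9 mean of 3.24 lay below the first quartile over genes of that set (4.07). Pdgfd was at 5.75, 5.76 and 6.21 in AM14-1C4, against 7.94, 7.86 and 7.96 in AM30-3F4. It was at 5.94, 5.87 and 5.75 in 14F1-1, against the 2012 arrays given above. These were 4.04-fold and 7.24-fold lower signals in AM14-1C4 and 14F1-1, with no overlap. Pdgfd means in AM14-1C4 and 14F1-1, 5.91 and 5.85, lay below the first quartile over genes of the third set (5.98). Both PDGF receptors, which are not members, were higher in the supportive line of 4 pairs. Pdgfra and Pdgfrb differed by 1.38 and 1.86 in the fetal liver pair, 1.31 and 0.98 in the bone marrow pair, 2.5 and 2.19 in the OP9 pair and 1.28 and 1.55 in the second fetal liver pair. In the AGM pair neither passed. Pdgfrb is also 1 of the 7 stromal markers, of which 5 were higher and 0 lower in the fetal liver pair, 5 and 0 in the bone marrow pair, 6 and 0 in the OP9 pair, 3 and 0 in the second fetal liver pair and 1 and 0 in the AGM pair. Of all genes, 28.5%, 15.5%, 34.4%, 27.6% and 8.56% passed in these pairs, in the same order. The part of these stromal markers in the results was not tested.

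Of the VEGF ligands, Vegfd, which binds the lymphatic receptor Flt4, was higher in the supportive line of 3 pairs, and its difference was positive in all 5. Vegfd was at 10.07, 10.04 and 9.89 in AFT024, against 8.72, 8.01 and 8.28 in BFC012. The difference was 1.67 ± 0.14 (SE), 3.17-fold (adjusted p = 6.39e-12). In OP9 it was at 7.72, 7.63 and 7.56, against 5.97, 5.98 and 6.12 in BFC, 3.06-fold higher. The second fetal liver pair differed by 0.89 (adjusted p = 4.37e-06), and the AGM and bone marrow pairs by 0.4 and 0.14, which did not pass. Supportive AGM clones differed as much, with 10.39, 10.4 and 10.43 in AM14-1C4, against 8.53, 8.42 and 8.54 in AM30-3F4. AM14-1C4 was 3.76-fold higher, and AM30-3F4 lay below the non-supportive AFT011 of the same set (mean of 8.99).

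Vegfc, the main ligand of Flt4, was at 8.16, 8.13 and 8.51 in AFT024, against 6.34, 6.38 and 6.16 in BFC012. AFT024 was 3.92-fold higher (adjusted p = 4.47e-14), and BFC012 was the lowest line of its set. In the AGM pair the order was the opposite, with UG26.1B6 1.63-fold lower than UG26.3B5 (adjusted p = 0.0004). Vegfc was 1.67-fold higher in 2012 than in AFT011, and it differed by -0.34 in BMC9 against BMC10 (adjusted p = 0.0846, and 0.0464 when the replicate number entered as a block). Between supportive lines it was at 6.87, 6.62 and 6.76 in AM14-1C4, against 7.94, 8.13 and 7.94 in AM30-3F4. It was at 6.54, 6.58 and 6.63 in 14F1-1, against 7.77, 7.85 and 8.1 in 2012. AM14-1C4 was 2.39-fold and 14F1-1 2.5-fold lower, so in AM14-1C4 Vegfc was low where Vegfd was high. Vegfb, a ligand of Flt1, passed in no pair by support and was 1.67-fold higher in AM14-1C4 than in AM30-3F4 and 1.36-fold lower in 14F1-1 than in 2012.

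The VEGF receptors Flt1 and Flt4 were highest in the non-supportive fetal liver clones BFC012 and AFT011. Flt1 was at 7.19, 7.18 and 7.47 in AFT024, against 8.61, 8.14 and 8.22 in BFC012. AFT024 was 2.06-fold lower, and it was still above the other 4 lines of the set, whose means ran from 6.28 to 6.53. In the second pair Flt1 was at 7.26, 7.11 and 7 in 2012, against 8.86, 8.84 and 9.02 in AFT011, 3.44-fold lower in 2012 (adjusted p = 5.41e-15). OP9 had 4.23, 4.05 and 4.53, against 5.55, 5.62 and 5.5 in BFC, 2.44-fold lower in OP9. Flt4 was at 5.78, 5.61 and 5.79 in AFT024, against 7.65, 7.08 and 7.39 in BFC012. All other lines of the set lay between 5.6 and 5.86 in the mean, and AFT024 was 3.13-fold below BFC012 (adjusted p = 1.08e-13). Likewise it was at 6.27, 6.09 and 6.17 in 2012, against 8.12, 8.15 and 8.53 in AFT011, 4.25-fold lower in 2012 (adjusted p = 3.48e-16). Flt4 did not differ past the threshold between OP9 and BFC, whose arrays overlapped. Its means there, 3.79 and 3.96, lay below the first quartile over genes of that set (4.07). Kdr, the receptor most tied to endothelial growth, was 1.51-fold lower in UG26.1B6 than in UG26.3B5. This call was lost with only the arrays of the pair (adjusted p = 0.0768). Kdr was also 1.23-fold lower in 2012 than in AFT011, at means of 5.65 and 5.96. Both lay below the first quartile over genes of the third set (5.98).

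**Figure D3:**
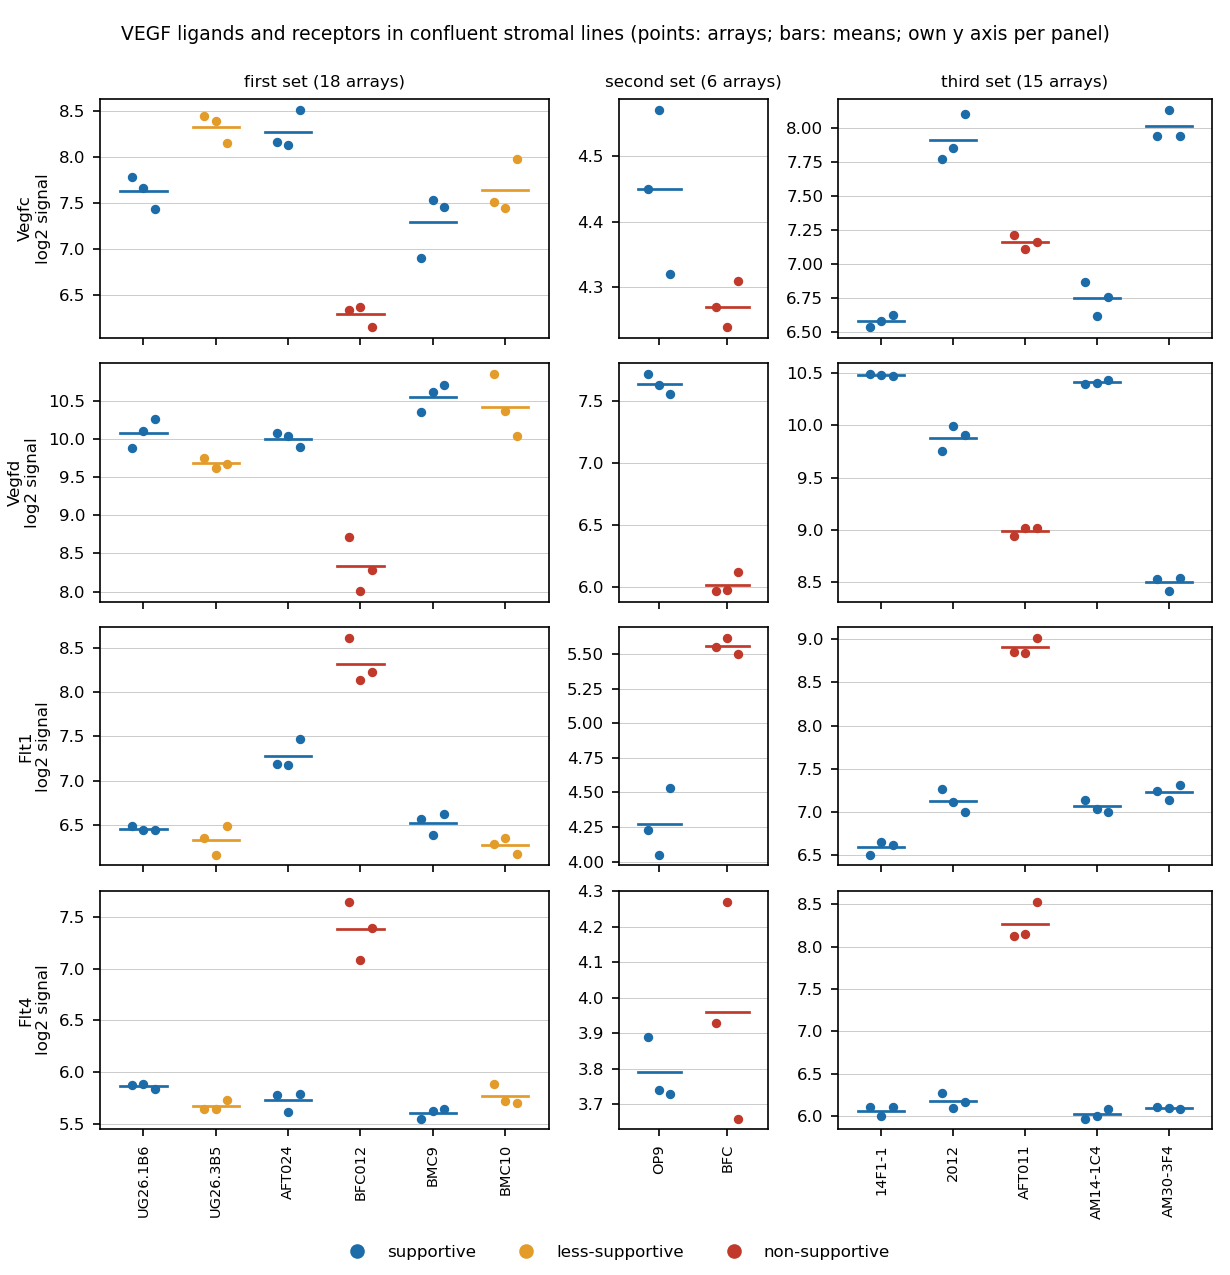
Log2 signal of Vegfc, Vegfd, Flt1 and Flt4 (y axes, one scale per panel) in each of 3 arrays of the 13 confluent lines (x axis), with bars at the means and colours for the labelled support; columns are the 3 normalization sets. Flt1 and Flt4 are highest in BFC012 and AFT011, the lines in which Fgf18 is also high, and Vegfc and Vegfd are lowest of the first set in BFC012.

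Few endothelial markers passed in these pairs. Of 9 such markers, 1 was higher and 0 were lower in AFT024 than in BFC012, and 0 passed between 2012 and AFT011. Their summed signal was 9.49 to 9.76 in AFT024 and 9.47 to 9.51 in BFC012, and 9.7 to 9.86 in 2012 and 9.5 to 9.75 in AFT011. Of 9 mesothelial and epithelial markers, 2 were higher and 5 lower in AFT024 than in BFC012 (beside 28.5% of all genes past the threshold), 1 was higher and 5 lower in 2012 than in AFT011 (27.6%), 0 were higher and 4 lower in OP9 than in BFC (34.4%), and 0 were higher and 2 lower in BMC9 than in BMC10 (15.5%). Upk3b was at 6.39 in AFT024 and 11.18 in BFC012, at 6.76 in 2012 and 10.79 in AFT011, and at 5.31 in OP9 and 7.44 in BFC. Wt1 was at 6.81 in AFT024 and 9.03 in BFC012, at 7.25 in 2012 and 10.4 in AFT011, and at 5.38 in OP9 and 6.26 in BFC. Other markers of the list went the other way: Msln differed by 2.3 and Krt8 by 0.51 in AFT024 against BFC012, and Krt19 by 1 in 2012 against AFT011. The summed list was 11.35 to 11.79 in AFT024 and 11.91 to 12.22 in BFC012, 10.33 to 10.6 in 2012 and 12.27 to 12.47 in AFT011, 8.27 to 8.41 in OP9 and 9 to 9.16 in BFC, and 10 to 10.09 in BMC9 and 11.16 to 11.38 in BMC10, where Flt1, Flt4 and Fgf18 did not pass. Its part in the differences of Flt1, Flt4 and Fgf18 was not tested. In RNA from a whole culture, fewer cells of a type and less RNA per cell cannot be told apart.

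Egfr and its ligands also changed direction between pairs. Egfr was at 7.73, 7.97 and 8.1 in UG26.1B6, against 6.88, 6.86 and 6.83 in UG26.3B5. This was the only member past a 2-fold change in the AGM pair (2.11-fold higher, adjusted p = 6.11e-08). In the fetal liver pair it was at 8.59, 8.33 and 8.44 in AFT024, against 10.18, 9.69 and 9.97 in BFC012. AFT024 was 2.81-fold lower (adjusted p = 4.71e-12). The second pair gave 9.08, 9.21 and 9.14 in 2012, against 10.59, 10.51 and 10.53 in AFT011, 2.64-fold lower in 2012. OP9 was 1.46-fold lower than BFC, and BMC9 1.4-fold higher than BMC10, with overlap. The lowest line of the third set was 14F1-1, at 6.89, 7.2 and 7.18, which was 4.15-fold below 2012 (adjusted p = 9.42e-16).

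Ereg (epiregulin) and Hbegf (heparin-binding EGF-like growth factor) were both lower in BMC9 than in BMC10. Ereg was at 6.73, 7.97 and 7.84 in BMC9, against 8.62, 8.64 and 9.65 in BMC10. The groups did not overlap, although the spread within each was wide, and BMC9 was 2.75-fold lower (adjusted p = 0.000119, or 0.0637 with only the arrays of the pair). Ereg was at 8.34, 8.11 and 8.03 in 14F1-1, against 9.48, 9.6 and 9.87 in 2012, 2.8-fold lower in 14F1-1. Hbegf was 1.94-fold lower in BMC9 than in BMC10, a call lost with only the arrays of the pair (adjusted p = 0.106) or of the first set (0.0625), and 1.52-fold higher in 2012 than in AFT011. It was at 9.52, 9.44 and 9.54 in AM14-1C4, against 10.66, 10.61 and 10.61 in AM30-3F4. It was at 9.45, 9.41 and 9.26 in 14F1-1, against 10.44, 10.4 and 10.42 in 2012. AM14-1C4 and 14F1-1 were thus lower, by 2.18-fold and 2.06-fold, while Ereg was 1.81-fold higher in AM14-1C4 than in AM30-3F4.

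Fetal liver pairs with no array in common could be set side by side. Of the members, 11 passed in both AFT024 against BFC012 and 2012 against AFT011, which is 11 of 14 and 11 of 18. For 9 of these 11 (81.8%) the direction was shared, compared with 56.7% of the 2537 genes that passed in both pairs. Higher in both supportive clones were Fgf10, Fgfr1, Vegfc and Vegfd, and lower in both were Fgf18, Met, Flt1, Flt4 and Egfr. Fgf7 and Pdgfb differed in opposite directions. Between the first fetal liver pair and the OP9 pair 9 of 11 members (81.8%) shared the direction, compared with 77.3% of 3156 genes. BFC may be the same clone as BFC012, so these pairs may share their non-supportive clone and are not read as independent. Between the second fetal liver pair and the OP9 pair the count was 8 of 9 (88.9%), compared with 51.3% of 2759 genes.

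Over the 5 pairs taken as replicates of support, 0 members passed, as did 0% of all genes (limma on the 5 differences). If BFC is BFC012, the fetal liver and OP9 pairs share their non-supportive clone and are not separate replicates. At an unadjusted p under 0.05 there were 3 members and 1670 genes. These members were Vegfd with a mean difference of 0.94 (95% interval 0.29 to 1.59), Fgf18 with -0.85 (-1.63 to -0.08) and Fgfr1 with 0.83 (0.02 to 1.65), and each had an adjusted p of 0.592. Fgf10 averaged 1.39 and Hgf 1.42, with intervals from -0.2 to 2.98 and from -0.81 to 3.65.

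Differences between pairs were themselves tested, a test chosen after the data were seen. The AGM pair and the fetal liver pair differed in 17 members, beside 24% of all genes, the bone marrow and fetal liver pairs in 16, beside 25.5%, the AGM and bone marrow pairs in 6, beside 12.6%, and the first and second fetal liver pairs in 16, beside 29.2%. Fgf7 stood out in the last of these, at -0.96 in AFT024 over BFC012 and 5.41 in 2012 over AFT011. Fgfr2 stood out between bone marrow and fetal liver, at 2.51 in BMC9 over BMC10 and -1.44 in AFT024 over BFC012.

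AFT024 and BFC012 were followed from confluent culture into sorted stroma, to ask whether their differences persist after co-culture and sorting. Without KLS cells, 2 members were higher and 3 lower in AFT024, beside 7.32% of all genes. With KLS cells, 7 were higher and 2 lower, beside 11.6%. Of the 14 members past the threshold in confluent cultures, 14 had the same sign in sorted stroma without KLS cells and 3 passed there, and 13 had the same sign with KLS cells and 5 passed. The matching shares of all genes past the threshold in confluent cultures were not computed. These counts are therefore not read as particular to the members. With the 4 arrays numbered 1 left out, which leaves 2 per group, 10 members passed without KLS cells and 15 with them, beside 19.3% and 23.8% of all genes. Counts without KLS cells rested on single arrays of this small design: with array 2 or 3 of either line left out, 1 or 2 members passed in place of 5, and Vegfc passed in each of these fits.

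Vegfc was at 6.08, 6.85 and 6.57 in AFT024, against 4.82, 4.55 and 4.98 in BFC012, with KLS cells. Without them it was at 6.48, 6.99 and 7.07 in AFT024, against 4.98, 4.92 and 5.26 in BFC012. The differences of 1.71 and 1.8 (adjusted p = 0.00046 and 0.000585) were close to the 1.97 of confluent cultures. Fgfr2 was at 7.34, 6.49 and 6.05 in AFT024, against 8.45, 8.46 and 8.32 in BFC012, with KLS cells. Without them it was at 5.42, 6.07 and 5.96 in AFT024, against 6.66, 7.6 and 7.5 in BFC012. AFT024 was lower in both settings, by 3.45-fold and 2.71-fold. Pdgfc was at 8.72, 8.27 and 8.48 in AFT024, against 9.62, 9.8 and 9.76 in BFC012, with KLS cells. That was 2.35-fold lower in AFT024 (adjusted p = 0.00114), and without KLS cells it was 1.75-fold lower. Fgf14, by 0.44 and 0.33, completed the 4 members that passed in both settings. Without KLS cells its adjusted p was 0.0562 with the replicate number as a block and 0.113 with only the arrays of the pair. That call was also lost without AFT024 array 2 or 3 or any 1 array of BFC012 (adjusted p from 0.0554 to 0.125). Fgf14 means were 4.66 in AFT024 and 4.22 in BFC012 with KLS cells, and 4.69 and 4.36 without them. The first quartile over genes of the sorted arrays was 4.63, and a low signal cannot be told from background.

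Other members passed with KLS cells and not without them in the fit of all 12 arrays, while the difference between the settings passed for 0 members. Vegfd was at 10.4, 10.6 and 10.15 in AFT024, against 7.47, 8.12 and 7.87 in BFC012, with KLS cells. AFT024 was 5.91-fold higher there (adjusted p = 0.00443). Without KLS cells Vegfd was at 8.64, 9.94 and 9.93 in AFT024, against 7.1, 8.84 and 8.82 in BFC012, where array 1 of each line was low and the difference of 1.25 did not pass (adjusted p = 0.14, and 0.0415 when the replicate number entered as a block). With arrays numbered 1 left out, Vegfd was 1.1 higher in AFT024 without KLS cells (adjusted p = 0.000365). Fgfr1 was at 7.82, 7.56 and 7.29 in AFT024, against 6.42, 6.54 and 6.62 in BFC012, with KLS cells, 2.04-fold higher in AFT024. Ereg was at 7.55, 8.93 and 8.83 in AFT024, against 6.66, 7.46 and 7.41 in BFC012, with KLS cells, 2.39-fold higher in AFT024. In confluent cultures Ereg had not differed past the threshold between these clones (0.01). Hbegf and Pdgfa were 1.76-fold and 1.46-fold higher in AFT024 with KLS cells, and Met was 1.95-fold lower in AFT024 without them.

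Egfr, lower in confluent AFT024, was spread widely in sorted stroma. It was at 7.72, 6.99 and 6.61 in AFT024, against 9.03, 9.03 and 8.99 in BFC012, with KLS cells. Without them it was at 5.96, 8.12 and 8.14 in AFT024, against 6.57, 9.43 and 9.43 in BFC012. Array 1 of both lines was more than 2 units below its mates without KLS cells, and neither difference passed. With arrays numbered 1 left out the Egfr difference was -2.21 with KLS cells and -1.3 without them, and both passed. Flt4, 3.13-fold lower in confluent AFT024, did not differ past the threshold in sorted stroma, where means lay between 4.25 and 4.5. These means lay below the first quartile over genes of the sorted arrays (4.63), where a low signal cannot be told from background. Summed mesothelial and epithelial markers were 8.95 to 9.29 in AFT024 and 9.18 to 9.68 in BFC012 with KLS cells, and 8.97 to 9.39 in AFT024 and 9.72 to 9.78 in BFC012 without them.

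**Figure D4:**
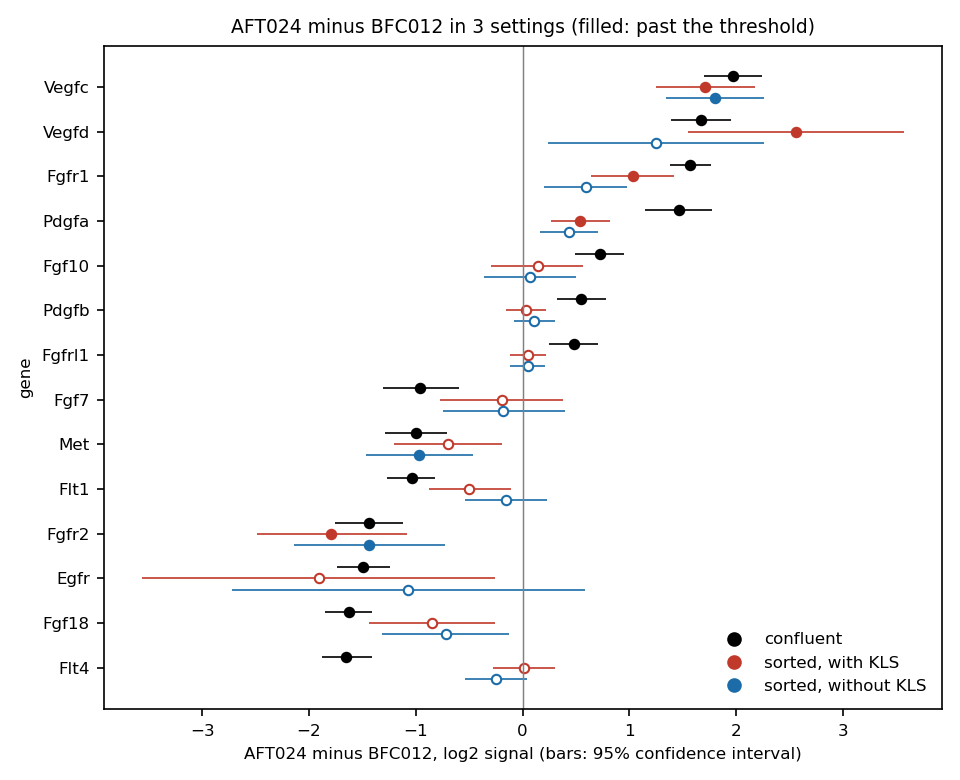
Difference AFT024 minus BFC012 in log2 signal (x axis) for the 14 members past the threshold in confluent cultures (y axis), in confluent cultures and in sorted stroma with and without KLS cells; bars are 95% confidence intervals and filled points passed the threshold. Vegfc and Fgfr2 keep their size in all 3 settings, while Flt4, Fgf7, Fgf10, Pdgfb and Fgfrl1 lie near 0 in sorted stroma. The Flt4 means in sorted stroma lie below the first quartile over genes (4.63), and the Fgf10 means, 4.56 to 4.81, lie around it. Such low signals cannot be told from background.

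Co-culture with KLS cells was compared with culture without them in each line. In AFT024 0 members passed, as did 0.351% of all genes. At an unadjusted p under 0.05 there were 6 of the 42 members, beside 1845 of the 19938 genes. In BFC012 2 members were higher and 1 lower, beside 0.883% of all genes. Flt1 was at 6.59, 7.02 and 7.09 with KLS cells, against 5.81, 5.92 and 5.76 without them, in BFC012. Every array with KLS cells lay above every array without, and the difference was 1.07 ± 0.18 (SE), 2.1-fold (adjusted p = 0.0182). In AFT024 Flt1 also separated the groups, at 6.25, 6.7 and 6.25 with KLS cells, against 5.36, 5.82 and 5.84 without them (difference 0.73, adjusted p = 0.126). Hbegf was at 6.69, 6.64 and 6.82 with KLS cells, against 7.61, 7.79 and 7.95 without them, in BFC012, which is 2.09-fold lower (adjusted p = 0.00578). Pdgfc was at 9.62, 9.8 and 9.76 with KLS cells, against 8.38, 9.11 and 9.04 without them, in BFC012, 1.84-fold higher (adjusted p = 0.0482). Leaving out array 2 or 3 of either BFC012 group left 1 member past the threshold, Hbegf, with Flt1 at differences of 0.97 to 1.11 and Pdgfc at 0.84 to 1.01. For Fgfr2 the difference was 1.16, larger than these, with an adjusted p of 0.171. The response of AFT024 differed from that of BFC012 in 0 members and in 0.0401% of all genes. At an unadjusted p under 0.05 there was 1 of the 42 members, Hbegf (0.71, adjusted p = 0.387), beside 1565 of the 19938 genes.

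With the arrays numbered 1 left out, KLS cells went with 3 higher and 3 lower members in AFT024, beside 6.06% of all genes, and with 3 higher and 5 lower in BFC012, beside 7.9%. Flt1 was then higher with KLS cells in AFT024 (0.65, adjusted p = 0.0236) and in BFC012 (1.22, adjusted p = 0.000425), and Fgf7 was lower in both (-0.6 and -0.49). The responses then differed in 3 members, Hbegf (0.96), Egfr (-0.91) and Vegfd (1.28), beside 2.95% of all genes. Summed hematopoietic markers were 8.23 to 8.37 with and 8.1 to 8.32 without KLS cells in AFT024, and 8.16 to 8.43 with and 8.18 to 8.24 without them in BFC012.

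**Figure D5:**
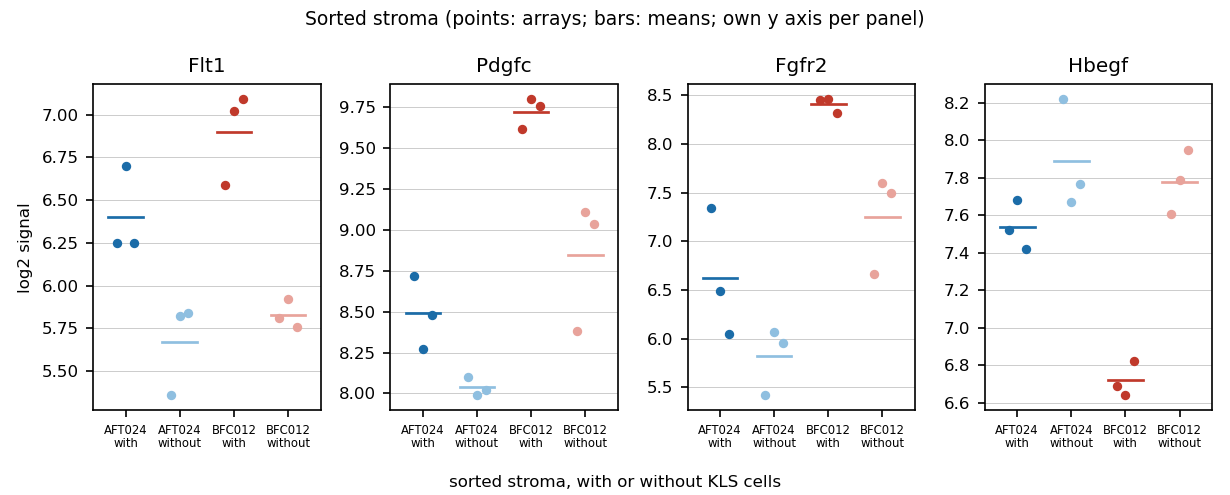
Log2 signal of Flt1, Pdgfc, Fgfr2 and Hbegf (y axes, one scale per panel) in each of 3 arrays of sorted AFT024 and BFC012 stroma with and without KLS cells (x axis), with bars at the means. Flt1 is higher with KLS cells in every array of both lines, and Hbegf in BFC012 is between 6.64 and 6.82 with KLS cells and between 7.61 and 7.95 without.

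Genes that act with these ligands were counted from lists. Of all genes, 8.56% passed in the AGM pair, 28.5% in the fetal liver pair and 15.5% in the bone marrow pair. The share was 34.4% in the OP9 pair and 27.6% in the second fetal liver pair. For AM14-1C4 against AM30-3F4 it was 31.6%, and for 14F1-1 against 2012 it was 36.6%. Counts near these shares, here and below, are not read as results on the lists. Of 20 feedback genes and targets of FGF and ERK signalling, 0 were higher and 8 lower in BMC9 than in BMC10 (median difference -0.42, against 0.03 over all genes). The 4 largest were Dusp4 (-1.27), a phosphatase acting on ERK, Dusp6 (-1.13), another, Spry4 (-1.1), a Sprouty inhibitor, and Phlda1 (-1.09). The same list had 6 higher and 4 lower in AFT024 than in BFC012, 5 and 4 in OP9 against BFC, 4 and 7 in 2012 against AFT011, and 2 and 1 in UG26.1B6 against UG26.3B5. Dusp6 was lower in the supportive line of these pairs except the last, where the difference was 0.85. Etv1, an ETS factor induced by FGF signalling, was higher in AFT024 (1.65) and OP9 (1.83). Between supportive lines the list had 7 higher and 3 lower in AM14-1C4 against AM30-3F4, led by Etv1 (4.11) and Spry3 (2.93), and 6 and 6 in 14F1-1 against 2012.

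Of 10 heparan sulfate core proteins, on which paracrine FGFs and HGF are held, 6 were higher and 1 lower in OP9 than in BFC. This stood beside 34.4% of all genes. Counts were 4 and 3 in AFT024 against BFC012 (28.5%), 4 and 0 in BMC9 against BMC10 (15.5%) and 3 and 1 in 2012 against AFT011 (27.6%). In UG26.1B6 against UG26.3B5 they were 0 and 2 (8.56%). Gpc6 was 3.12 higher in BMC9, and Gpc1 differed by 3.29 in AFT024, 1.23 in 2012 and -0.97 in UG26.1B6 against their partners. The list's median difference was 0.57 in the OP9 pair, against 0.01 over all genes, and 0.26 in the bone marrow pair, against 0.03. Heparan sulfate synthesis and editing genes, 20 measured, had 3 higher and 6 lower in the fetal liver pair and 2 higher and 8 lower in the second. The sulfatase Sulf1, which trims heparan sulfate, differed by 1.53 in UG26.1B6 against UG26.3B5 and by -1.5 in AFT024 against BFC012. In 14F1-1 against 2012 this list had 4 higher and 6 lower, with Sulf2 at -3.96, the sulfotransferase gene Hs6st2 at -3.45, Sulf1 at -3.18 and Ndst4 at 3.1.

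Of 17 other EGF family genes, 3 were higher and 5 lower in AFT024 than in BFC012, beside 28.5% of all genes. In OP9 against BFC 1 was higher and 4 were lower, beside 34.4%. Erbb3, a receptor of neuregulins, differed by -3.78 in AFT024 and by -2.15 in OP9, and by -3.04 with and -2.08 without KLS cells in sorted AFT024. The feedback inhibitor Errfi1 was higher with KLS cells in both sorted lines, by 1.43 in AFT024 (adjusted p = 0.0342) and 1.34 in BFC012 (adjusted p = 0.0265). Of the neuropilins and placental growth factor, Nrp2 differed by 1.65 in AFT024 and -1.31 in OP9, and Nrp1 by -0.85 in 2012, against their partners. Receptor adaptors (9 measured) had at most 3 members past the threshold in 1 direction in any of the 5 pairs, and FGF co-receptors and binding proteins (7) at most 2.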

How the data were processed

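Expression was measured on Affymetrix mouse gene 1.0 ST arrays, hybridised with biotin-labelled cDNA made from 100 ng of total RNA, per the labels' protocols: 51 arrays, 3 in each of 17 groups. The deposited values are log2 signals made with RMA in Partek, per the submitters' processing notes. The labels do not record how arrays were grouped for normalization. The values fall into 4 sets with nearly the same distribution inside each (mean distance between the sorted values of 2 arrays at most 0.107 within sets and at least 0.144 between them), which were taken as separately normalized, and levels were compared within a set only. The files hold no detection calls, so a low signal cannot be told from background, and the number of arrays limits precision.

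Of 35556 probe sets, 21789 had 1 gene symbol, 1621 several and 12146 none; those with 1 symbol gave 19938 genes, and 999 genes had several, of which the probe set brightest on average represents the gene. The members and gene lists were chosen with earlier results of these data known. Differences were fitted with limma 3.58.1 in R 4.3.3, over the 39 confluent and the 12 sorted arrays separately, with empirical Bayes moderation and Benjamini-Hochberg adjustment over all genes at 0.05. Support was tested on the 5 pair differences. The fit was tested on simulated data. Every member is named. Members past the threshold with an absolute difference of at least 1 and arrays that do not overlap are given by array (with no size minimum for KLS responses), the others by counts and ranges, and of each gene list at most the 4 largest called differences are named.

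Same-numbered arrays deviated together in the AGM pair (correlations of 0.535, 0.327 and 0.468, and at most 0.103 between different numbers). In the bone marrow pair (0.323, 0.116 and 0.435) and sorted stroma without KLS cells (0.671, 0.517 and 0.466) they also correlated above 0.1. Arrays of different numbers reached 0.194 and 0.501 there, so pairing by number is less clear. The replicate block is given in these 3 comparisons where it ends or makes a call. Tests of differences between pairs, and fits without the sorted arrays numbered 1, were added after the data were seen.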

Additional observations from a re-analysis of the deposited data

Results flagged for a closer look

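Groups of 3 arrays are too small for a test of single arrays, so none is given. These 8 results are members for which 2 pairs of lines passed the threshold in opposite directions. The difference between the pairs, a test added after the data were seen, also passed for each, which follows nearly from that choice and adds no support. The AGM pair is UG26.1B6 minus UG26.3B5, the bone marrow pair BMC9 minus BMC10, the fetal liver pair AFT024 minus BFC012 and the second fetal liver pair 2012 minus AFT011, all as differences in log2 signal.

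Between the AGM and fetal liver pairs, Egfr differed by 2.57 (1.08 in the AGM pair and -1.49 in the fetal liver pair), Fgfr2 by 2.37 (0.93 and -1.44), Met by 1.45 (0.45 and -1) and Vegfc by -2.67 (-0.7 and 1.97). The AGM difference of Met lost its call in 6 alternatives. Between the bone marrow and fetal liver pairs, Egfr differed by 1.98 (0.49 in the bone marrow pair) and Fgfr2 by 3.95 (2.51). Both contrasts share the fetal liver arrays, so they are not separate observations, and the bone marrow difference of Egfr lost its call in 3 alternatives.

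Between the fetal liver pairs, Fgf7 differed by -6.36 (-0.96 in the fetal liver pair and 5.41 in the second, adjusted p = 3.36e-20) and Pdgfb by 1.18 (0.55 and -0.63, adjusted p = 4.84e-07), where the first of these lost its call with only the arrays of the pair (adjusted p = 0.0701). These pairs lie in different normalization sets, and only differences within a set enter. The cause of these opposite differences was not tested.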

How the results depend on the processing

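Of 111 member calls, 81 stayed past the threshold under every alternative run, 30 lost it under 1 or more, and 0 values reversed. Among the confluent comparisons only the bone marrow pair had a member count that moved by more than 1.5 times, with 3 members in place of 7 when only its own arrays entered the fit and 2 with only its normalization set. Leaving out 1 array gave 1 to 6 members in sorted stroma without KLS cells (5 with all arrays) and 1 to 4 in the KLS response of BFC012 (3 with all arrays). With the sorted arrays numbered 1 left out, chosen after seeing the data, 10 members passed without KLS cells, 15 with them, 6 in the KLS response of AFT024, 8 in that of BFC012 and 3 in their difference. The cause was not tested.

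Single arrays decided several calls. Without 2012 array 1, Fgf14, Fgf23 and Fgf8 lost their calls in the second fetal liver pair (differences of 0.18, 0.13 and 0.15), and Fgf14, Fgf23 and Vegfb theirs in 14F1-1 against 2012 (-0.15, -0.09 and -0.36). Without OP9 array 1, Fgf6 and Fgfr2 lost theirs (0.13 and 0.45), and without BFC array 1 Pdgfa (0.31). Met in the AGM pair lost its call without UG26.1B6 array 1 or 2 or UG26.3B5 array 2 or 3 (0.32 to 0.47), Fgf2 there without UG26.1B6 array 2 or 3 or UG26.3B5 array 1 (-0.63 to -0.62), and Hbegf in the second fetal liver pair without any 1 of its arrays (0.53 to 0.65). Others ended by leaving out 1 array were Egfr (BMC9 array 1, 0.31) and Pdgfb (BMC9 array 2 or 3 or BMC10 array 3, 0.3 to 0.35) in the bone marrow pair, Kdr in the second fetal liver pair (any array of 2012 or AFT011 array 3, -0.32 to -0.24), Ereg in AM14-1C4 (array 1, 0.77), and, in sorted stroma with KLS cells, Ereg (AFT024 array 2 or 3 or BFC012 array 1 or 3, 1 to 1.38) and Pdgfa (BFC012 array 1 or 2, 0.51 to 0.55).

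Over all genes, counts moved by more than 1.5 times in these fits. The AGM pair had 748 genes with its own arrays, 828 with its set and 1122 without UG26.1B6 array 2, against 1707. The bone marrow pair had 1296 and 1900, against 3082. Sorted stroma without KLS cells had 884 with its own arrays and 749 to 2241 with 1 array left out, against 1459, and with KLS cells 1381 to 2732, against 2314. The KLS response had 11 genes with its own arrays and 22 to 149 with 1 array left out in AFT024, against 70, and 70 to 373 in BFC012, against 176. The difference of the responses had 5 with trended variance, 0 with the replicate block and 0 to 46 with 1 array left out, against 8. Without arrays numbered 1 these 5 counts were 3852, 4737, 1208, 1576 and 589.

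With the replicate block, members called were 9, 17, 8, 15, 17, 13 and 21 in the AGM, fetal liver, bone marrow, OP9, second fetal liver, AM14-1C4 and 14F1-1 comparisons, 5 and 10 in sorted stroma without and with KLS cells, and 0, 2 and 0 for the KLS response of AFT024, that of BFC012 and their difference. The block ended the calls of Kdr in the second fetal liver pair (adjusted p = 0.0713) and Pdgfc in the KLS response of BFC012 (0.0778), where same-numbered arrays share only a number, and of Fgf14 in sorted stroma (0.0562). It brought in Pdgfd in the AGM pair. Vegfc in the bone marrow pair and Vegfd in sorted stroma without KLS cells also came in, where pairing by number is less clear. Where numbers do not pair the arrays, the block brought in Fgf23, Pdgfd and Vegfb in the fetal liver pair and Hbegf in the OP9 pair. Fgf15 in 14F1-1 against 2012 and Flt1 in sorted stroma with KLS cells came in likewise. Support over 5 pairs had 0 members and 0 genes past the threshold in limma under every alternative, with 3 members and 1670 genes at an unadjusted p under 0.05. Without detection calls, differences at low signal cannot be bounded.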
